A study of Homo sapiens with 4 samples.

Results

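ANXA1, ANXA2, S100A4, S100A6, S100A10, S100A11, CRIP1, LGALS1, CD44 and EMP1 are 10 genes known from adherent or mesenchymal-like cells, and all 10 were found by symbol among the 16376 genes measured in the neuroendocrine prostate cancer (NEPC) cell line LASCPC-01. They were picked by name with fluoxetine and PBS values of these libraries already known, so what they did under fluoxetine is given here as a description. The line was made by combined expression of NMYC and activated AKT1, which every library carries, and it was grown in HITES medium containing hydrocortisone, insulin, transferrin and estradiol. The groups were 2 libraries of cells given PBS and 2 of cells given fluoxetine, an antidepressant that inhibits the serotonin transporter, all labelled wild type (WT) and day 3. The titles of the fluoxetine libraries carry the letters PP where the treatment label reads Fluoxetine, the labels give no dose, and the study's text gives a shorter exposure than the labels do. A single cell line was used, and nothing in the labels says that the libraries came from separate cultures, so the spread between replicates may be technical.

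Annexins are proteins that bind acidic phospholipids when calcium rises, and they take part in membrane organization, repair and exocytosis. S100 proteins are small calcium sensors with EF-hand domains, and S100A10 and S100A11 are the partners of ANXA2 and ANXA1 in complexes of annexin and S100 dimers. CRIP1 is a short LIM domain protein, LGALS1 (galectin-1) binds beta-galactosides, CD44 is the main cell surface receptor for hyaluronan, and EMP1 is a small membrane protein of the PMP22 family that spans the membrane several times. Expression of many of these genes is known to rise when epithelial cells take on mesenchymal features.

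The labelled cell type was checked against marker genes. NCAM1 (44.3 to 52.0 FPKM over the 4 libraries) and INSM1 (21.7 to 24.2 FPKM) were abundant, together with the epithelial genes KRT8 (412 to 475 FPKM) and EPCAM (228 to 271 FPKM), whereas CHGA, CHGB and SCG3 had at most 7 reads in any library. FPKM are fragments per kilobase of gene, scaled to the mapped fragments of each library. Comparisons of levels between genes depend on the gene length used, which may differ from that of the transcripts present. The reads behind each FPKM were recovered, and the 4 libraries held 32203924 to 34123782 reads on the listed genes. In bulk RNA, fewer cells with a transcript and less of it per cell cannot be told apart.

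The promoters of 5 members are shown because they belong to the 2 annexins among the members, whose levels lay far apart, and to the members whose fluoxetine and PBS libraries were most widely separated. They are RefSeq windows of GRCh38.p14 running from 250 bases before to 50 bases after the gene start, written 5′ to 3′ on the strand of the gene. Capitals mark matches on either strand to motifs of 4 kinds. The TATA box was searched as TATAAA and the GC box as GGGCGG. The site of AP-1 was searched as TGANTCA, and that of the TEAD factors, which was matched in no member, was searched as GGAATG. The 3 GC box matches of ANXA2 overlap each other. The windows are ANXA1 (chr9:73151615-73151914, plus strand), ANXA2 (chr15:60397937-60398236, minus strand), CRIP1 (chr14:105486636-105486935, plus strand), EMP1 (chr12:13196476-13196775, plus strand) and CD44 (chr11:35138921-35139220, plus strand).
ANXA1: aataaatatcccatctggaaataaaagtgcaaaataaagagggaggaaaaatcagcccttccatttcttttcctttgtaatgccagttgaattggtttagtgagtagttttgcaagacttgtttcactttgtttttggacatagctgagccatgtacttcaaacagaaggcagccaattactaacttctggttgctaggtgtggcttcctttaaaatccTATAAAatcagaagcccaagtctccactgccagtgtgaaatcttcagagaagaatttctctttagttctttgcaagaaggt
ANXA2: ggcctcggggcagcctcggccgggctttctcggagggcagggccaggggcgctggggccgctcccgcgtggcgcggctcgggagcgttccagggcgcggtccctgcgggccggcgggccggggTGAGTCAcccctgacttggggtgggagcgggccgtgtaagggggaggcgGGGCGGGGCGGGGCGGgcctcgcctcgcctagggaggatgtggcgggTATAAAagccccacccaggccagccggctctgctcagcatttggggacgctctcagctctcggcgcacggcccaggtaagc
CRIP1: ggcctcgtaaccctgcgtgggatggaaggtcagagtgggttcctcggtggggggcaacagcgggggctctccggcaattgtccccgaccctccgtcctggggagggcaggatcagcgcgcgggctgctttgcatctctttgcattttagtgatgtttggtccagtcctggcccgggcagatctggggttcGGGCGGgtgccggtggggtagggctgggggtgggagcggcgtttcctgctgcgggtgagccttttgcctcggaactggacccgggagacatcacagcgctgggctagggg
EMP1: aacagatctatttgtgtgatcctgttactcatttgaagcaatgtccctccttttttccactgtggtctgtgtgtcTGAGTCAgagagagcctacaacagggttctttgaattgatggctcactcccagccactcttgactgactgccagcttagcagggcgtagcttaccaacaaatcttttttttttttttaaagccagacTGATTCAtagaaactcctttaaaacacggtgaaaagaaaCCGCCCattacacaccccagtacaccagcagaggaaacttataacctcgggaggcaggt
CD44: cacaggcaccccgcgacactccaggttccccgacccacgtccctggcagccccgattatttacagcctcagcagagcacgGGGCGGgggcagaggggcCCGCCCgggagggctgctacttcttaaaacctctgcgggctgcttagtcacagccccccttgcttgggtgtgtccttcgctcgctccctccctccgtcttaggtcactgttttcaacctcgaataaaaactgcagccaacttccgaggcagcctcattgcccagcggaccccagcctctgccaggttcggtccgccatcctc

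A window was found for 9 of the 10 members, all but LGALS1. The ANXA1 window held no CpG, as did 4.16% of 27305 promoters, and had a GC content of 37.7%, whereas the ANXA2 window held 32 CpG at a GC content of 76.0%. The median promoter had 14 CpG and 58.3% GC. EMP1 had 4 CpG, and CRIP1, CD44 and S100A11 had 18 to 22. A TATA box match was present in ANXA1, ANXA2 and S100A4 and in 12% of all promoters. In all 3 it began 31 bases before the start, as in 0.520% of promoters, a position singled out after it was seen. AP-1 matches were found in EMP1, which had 2, and in ANXA2, which had 1, against 7.76% of promoters with any. GC box matches were found in 7 of the 9 members and in 44.6% of promoters, and no member had a TEAD match, which 14% of promoters had. CRIP1, EMP1 and CD44 shared only the GC box among the motifs searched.

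The 10 genes ranged from single reads to among the most abundant transcripts of these cells. ANXA1, a regulator of inflammation and phospholipase activity, had 1414 and 1328 FPKM with PBS and 1457 and 1383 FPKM with fluoxetine. Its locus (GRCh38, GENCODE 29) is chromosome 9, 73151757 to 73170393. It ranked 24 of all 16376 genes by mean FPKM and took 0.221% to 0.242% of the reads of a library. ANXA2, on chromosome 15 from 60347134 to 60402883, had 1.29 and 1.60 FPKM with PBS and 1.34 and 0.857 FPKM with fluoxetine. The ANXA1 level was 832 to 1614 times that of ANXA2 within a library. This ratio depends on the gene lengths implied by the values, 1662 bases for ANXA1 and 5227 bases for ANXA2. In PBS replicate 1 the reads were 77262 for ANXA1 and 221 for ANXA2. Which transcripts were present was not tested. GENCODE 29 annotates 3 processed pseudogenes of ANXA2, 2 of S100A11 and 4 of CRIP1, none of which was analysed here, and reads that could not be placed between copies may have been lost from these genes.

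**Figure D1:**
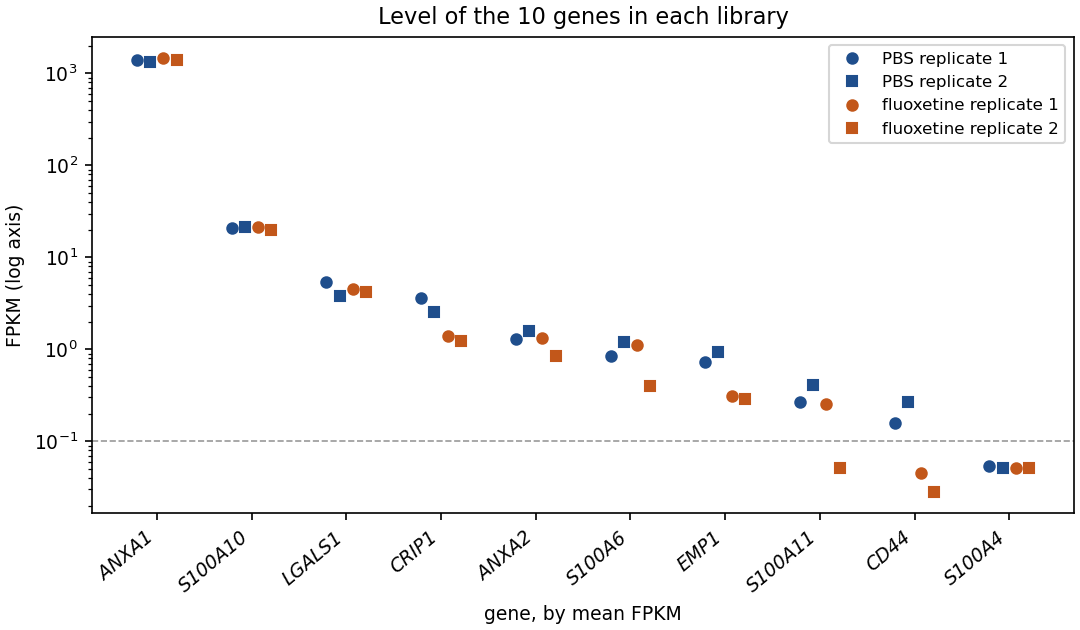
FPKM of each of the 10 genes on a log axis, 1 point per library, with PBS in blue, fluoxetine in orange, circles for replicate 1 and squares for replicate 2. The dashed line is the mean of 0.1 FPKM needed for testing. ANXA1 lies between 1328 and 1457 FPKM and S100A10 near 21 FPKM in all 4 libraries, whereas CRIP1, EMP1 and CD44 show both fluoxetine points under both PBS points.

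The S100 members were similarly uneven. S100A10, also called p11, had 21 and 21.3 FPKM with PBS and 21.2 and 19.8 FPKM with fluoxetine, from 463 to 497 reads. Its level was 13.4 to 23.1 times that of its partner ANXA2. S100A6 (calcyclin) had 0.841 and 1.19 FPKM with PBS and 1.13 and 0.397 FPKM with fluoxetine, from 12, 18, 17 and 6 reads. S100A11 (calgizzarin), the partner of ANXA1, had 5 and 8 reads with PBS and 5 and 1 with fluoxetine, or 0.270, 0.409, 0.255 and 0.0510 FPKM. S100A4, which binds non-muscle myosin and is widely used as a mesenchymal marker, had 1 read in every library. That is 0.0511 to 0.0541 FPKM, under the 0.153 to 0.162 FPKM that 3 reads would give, so no difference in S100A4 was detectable at this depth.

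All 4 S100 members lie on chromosome 1, in a stretch of 1649 kb that holds 9 S100 genes with values here. S100A10 (151982915 to 151994390) and S100A11 (152032506 to 152047907) are 38 kb apart, yet S100A10 had 52.1 to 388 times the FPKM of S100A11. S100A6 (153534599 to 153536244) and S100A4 (153543613 to 153550136) are 7 kb apart and were both low. Among the other S100 genes there, S100A13 had 4.27 to 4.97 FPKM, and S100A2, S100A16, S100A14 and S100A1 stayed at or below 0.466 FPKM.

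LGALS1, on chromosome 22 from 37675608 to 37679806, had 5.42 and 3.76 FPKM with PBS and 4.52 and 4.24 FPKM with fluoxetine. CRIP1, on chromosome 14 from 105486317 to 105488947, had 3.62 and 2.57 FPKM with PBS and 1.41 and 1.24 FPKM with fluoxetine. EMP1 (chromosome 12, 13196716 to 13219939) had 0.736 and 0.928 FPKM with PBS and 0.312 and 0.292 FPKM with fluoxetine. CD44 (chromosome 11, 35138870 to 35232402) had 0.159 and 0.265 FPKM with PBS and 0.0448 and 0.0285 FPKM with fluoxetine, which came from 37, 65, 11 and 7 reads. CRIP1, CD44 and S100A4 each overlap an annotated gene on their own strand (S100A3 for S100A4), and CD44 (by CD44-AS1), ANXA2, S100A6 and S100A11 each overlap one on the other strand. Strand cannot separate reads in the overlaps on the same strand. Reads in the other overlaps cannot be told apart either, since the strand setting of the counting is not given in the sources used here.

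Ordered by mean FPKM with PBS, the members ran ANXA1, S100A10, LGALS1, CRIP1, ANXA2, S100A6, EMP1, S100A11, CD44 and S100A4. Only S100A6 and EMP1 were neighbours whose PBS libraries overlapped, although LGALS1 and CRIP1 (lowest 3.76 against highest 3.62 FPKM), ANXA2 and S100A6 (1.29 against 1.19 FPKM) and S100A11 and CD44 (0.270 against 0.265 FPKM) were separated by little. With fluoxetine, CRIP1 overlapped with ANXA2, and ANXA2 overlapped with S100A6. CD44, at 0.0285 to 0.0448 FPKM, was then below the level of 1 read on the much shorter S100A4. In the same sense the level of S100A11 could not be told from that of S100A4 in fluoxetine replicate 2, where each had 1 read.

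The relatives of the members filled different parts of this range. ANXA5 (62.2 to 69.9 FPKM), ANXA4 (48.2 to 50.6 FPKM), ANXA7 (40.2 to 44.2 FPKM) and ANXA11 (26.7 to 29.1 FPKM) were abundant, and ANXA1 had 20.2 to 22.6 times the FPKM of ANXA5, the next annexin. EMP2, the relative of EMP1, had 32.2 to 35.1 FPKM, which was 34.7 to 116 times EMP1. LGALS3 (3.08 to 4.06 FPKM) and LGALS8 (2.68 to 3.6 FPKM) were near LGALS1. The LIM domain genes CSRP1 (102 to 114 FPKM) and CSRP2 (48.5 to 60.9 FPKM) were far above CRIP1, and CRIP2, which lies beside CRIP1 on chromosome 14, had 5.77 to 7.12 FPKM. CD44 was low beside the ERM proteins that link it to actin, among them EZR (71.5 to 77.3 FPKM) and MSN (31.1 to 37.4 FPKM), and beside ESRP1 (50.8 to 58.0 FPKM), a splicing factor that acts on its transcript.

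**Figure D2:**
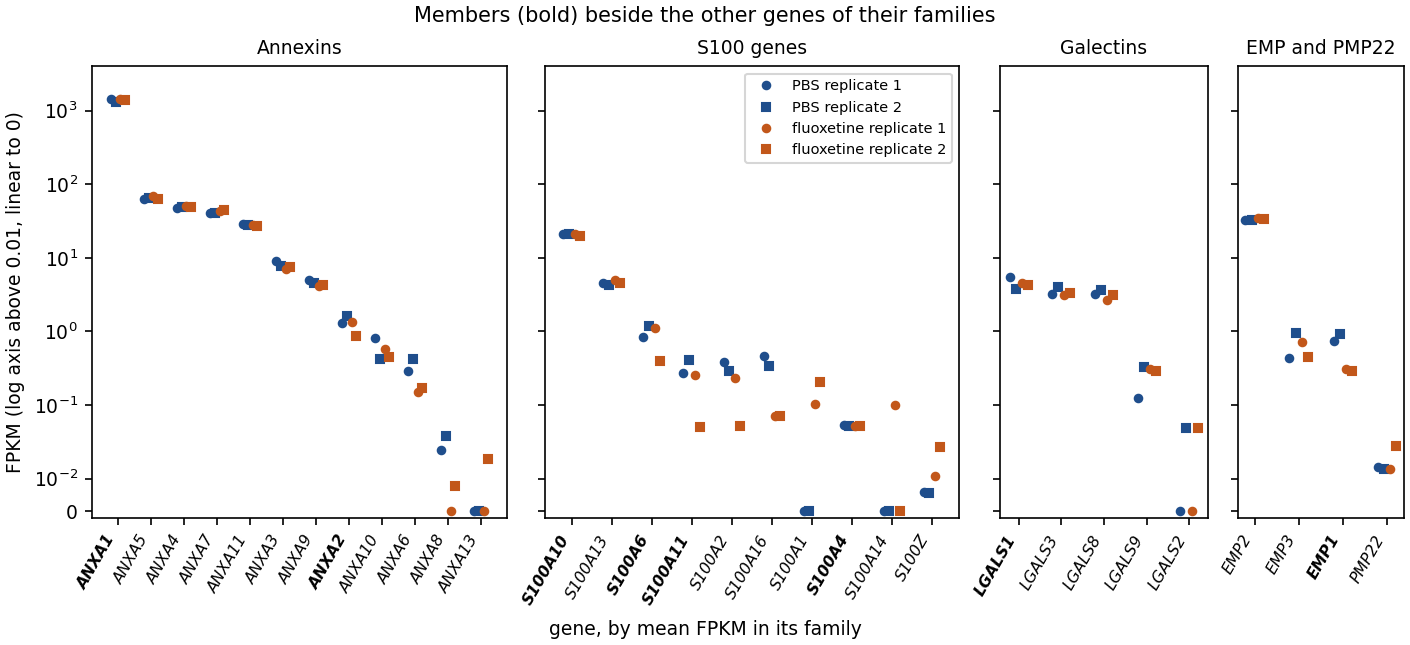
FPKM of the members (bold names) and of the other annexins, S100 genes, galectins and EMP and PMP22 genes, on an axis that is logarithmic above 0.01 and linear down to 0, with 1 point per library as marked. ANXA1 stands 20.2 to 22.6 times above ANXA5, whereas EMP1 lies under EMP2 in every library.

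The first comparison asked how far the members differed between the 2 PBS libraries, which received the same treatment. With 1 library on each side there is no test, and the intervals below cover counting error only. LGALS1 in PBS replicate 2 was 0.694 times its level in replicate 1 (94 and 69 reads, exact Clopper-Pearson 95% interval 0.501 to 0.957). CRIP1 leaned the same way, at 0.709 times (80 and 60 reads, 0.499 to 1.0). ANXA1 was at 0.939 times, with a narrow interval of 0.929 to 0.948 from 77262 and 76687 reads.

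CD44 and ANXA2 went the other way between the PBS libraries. CD44 in replicate 2 was 1.66 times that in replicate 1 (37 and 65 reads, 1.09 to 2.56), and ANXA2 was 1.24 times (221 and 290 reads, 1.04 to 1.49). EMP1, at 1.26 times (0.913 to 1.75), S100A6, at 1.42 times (0.647 to 3.23), S100A11, at 1.51 times (0.437 to 5.88), and S100A10, at 1.01 times (0.891 to 1.15), had intervals that included 1. The interval lay above 1 for 2 of the 9 members with a mean of at least 0.1 FPKM, and for 23.0% of the 12663 genes at that mean. It lay below 1 for 2 members and for 19.4% of those genes. On the log2(FPKM + 0.1) scale, LGALS1 alone differed by more than 0.5, at -0.51, where 2.88% of genes were lower by that much and 3.25% higher. CD44 (0.49), CRIP1 (-0.48), S100A6 (0.46) and S100A11 (0.46) were just short of it. LGALS1 no longer passed it with a pseudocount of 1, and 3 members passed it with a pseudocount of 0.01 or after rescaling to TPM.

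Between the 2 fluoxetine libraries, ANXA2, S100A6 and S100A11 were lower in replicate 2 by more than 0.5 on the log2(FPKM + 0.1) scale. ANXA2 was 0.642 times as high in replicate 2 (243 and 156 reads, 0.521 to 0.788), and S100A6 was 0.353 times as high (17 and 6 reads, 0.114 to 0.938). S100A11 was 0.200 times as high, with an interval of 0.00423 to 1.79 that 5 reads and 1 read leave very wide. Their values on that scale were -0.59, -1.30 and -1.23, where 3.03% of genes were lower and 3.1% higher by as much. The counting interval of this pair lay below 1 for ANXA1, ANXA2 and S100A6, as for 21.3% of genes, and above 1 for no member, as for 23.8%. CD44 was 0.636 times as high in replicate 2, a ratio as low as that of ANXA2, but from 11 and 7 reads (0.209 to 1.80). Its interval and those of CRIP1, EMP1, LGALS1 and S100A10 included 1.

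**Figure D3:**
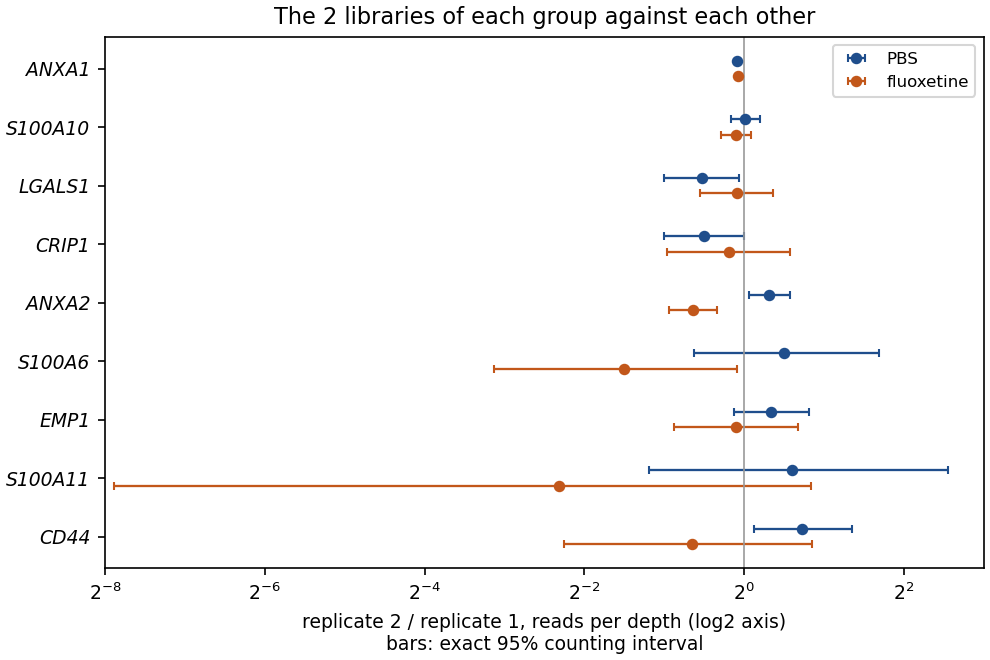
Ratio of replicate 2 to replicate 1 in reads per depth, on a log2 axis, for PBS (blue) and fluoxetine (orange), with exact 95% counting intervals as bars; S100A4, with 1 read per library, is left out. CD44 and ANXA2 lie right of 1 in PBS, LGALS1 lies left of 1 in PBS, and ANXA2 and S100A6 lie left of 1 in fluoxetine.

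The second comparison set fluoxetine against PBS. CRIP1, EMP1 and CD44 were lower in both fluoxetine libraries than in both PBS libraries by wide margins, whereas ANXA1, S100A10 and LGALS1 were nearly level and their groups overlapped. The mean of CRIP1 was 3.1 ± 0.744 FPKM under PBS and 1.32 ± 0.122 FPKM under fluoxetine (SD, n = 2 each), 2.34-fold lower. Its log2 difference was -1.15 with a standard error of 0.18, here and below from limma on log2(FPKM + 0.1), a scale that understates the change of low genes. EMP1 was 2.75-fold lower by the ratio of mean FPKM, with a log2 difference of -1.21 (standard error 0.25, adjusted p = 0.114 from limma). Its highest fluoxetine library (0.312 FPKM) was under its lowest PBS library (0.736 FPKM). CD44 was 5.79-fold lower by the ratio of means, and its log2 difference on the scale with the pseudocount was -1.17 (standard error 0.43, adjusted p = 0.525 from limma).

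S100A11 also had both fluoxetine libraries under both PBS libraries, with a log2 difference of -0.91 (standard error 0.43), but fluoxetine replicate 1 (0.255 FPKM, 5 reads) nearly equalled PBS replicate 1 (0.270 FPKM, 5 reads). Its log2 difference was -0.29 without fluoxetine replicate 2 and -1.52 without fluoxetine replicate 1. ANXA2 had a log2 difference of -0.39 (standard error 0.22) and S100A6 one of -0.50 (standard error 0.35), and in both the first fluoxetine library lay within the PBS range while the second lay under it. Without fluoxetine replicate 2 the log2 difference was -0.10 for ANXA2 and 0.15 for S100A6, and without fluoxetine replicate 1 it was -0.68 and -1.15. The mean of ANXA1 was 1371 ± 61.2 FPKM under PBS and 1420 ± 52.2 FPKM under fluoxetine (SD, n = 2 each), a log2 difference of 0.05 (standard error 0.10), which was -0.04 after quantile normalization. S100A10 differed by -0.05 (standard error 0.08) and LGALS1 by -0.04 (standard error 0.15) on the log2 scale, and LGALS1 was at 0.01 after quantile normalization.

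**Figure D4:**
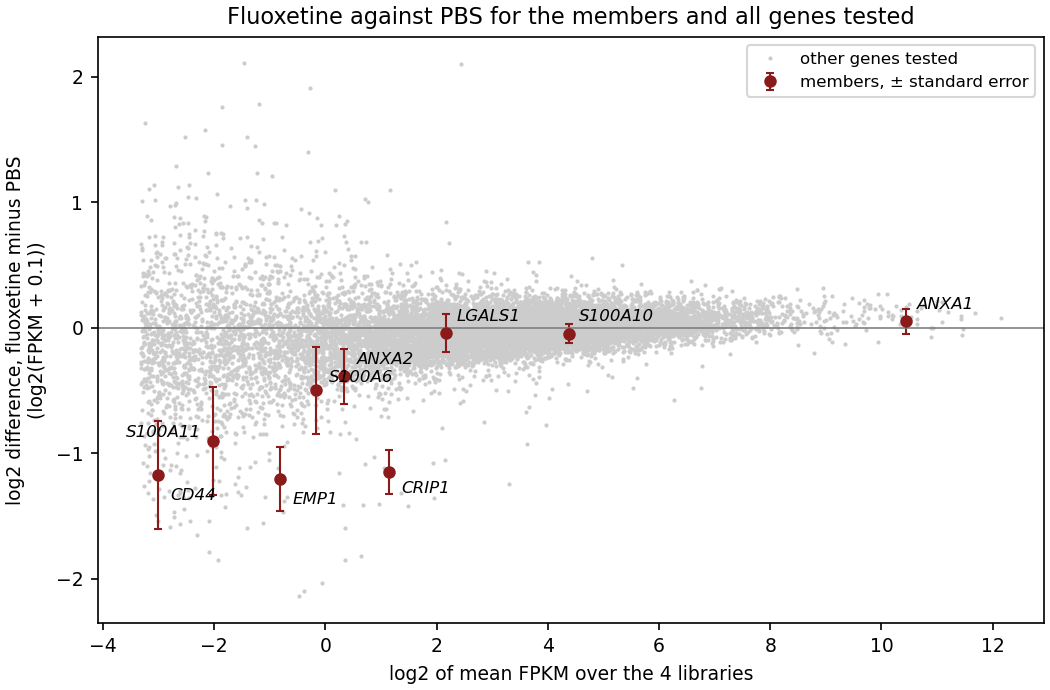
Log2 difference between fluoxetine and PBS on the log2(FPKM + 0.1) scale against the log2 of the mean FPKM, for the 9 members tested (dark red, bars are standard errors) and all other genes tested (grey). EMP1, CD44 and CRIP1 lie between -1.21 and -1.15, and ANXA1, S100A10 and LGALS1 lie within 0.05 of 0.

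Of the 9 members tested, 1, CRIP1, had an adjusted p under 0.05 from limma, and it was lower in fluoxetine. Of all 12663 genes tested, 0.237% had one, 27 genes (0.213%) lower and 3 (0.0237%) higher in fluoxetine. Both fluoxetine libraries were under both PBS libraries for 4 of the 9, namely CRIP1, EMP1, CD44 and S100A11, and for 24.8% of all genes tested. No member had both fluoxetine libraries above, as 16.7% of genes did. The members had a median log2 difference of -0.50, with single values from -1.21 to 0.05, beside -0.021 over all genes tested. The median was -0.10 without fluoxetine replicate 2 and -1.15 without fluoxetine replicate 1, and over the members with a mean of at least 1 FPKM it was -0.05. Because the members were chosen with values of this contrast known, these counts are not independent evidence of a direction. CD44 also reached the minimum mean of 0.1 FPKM only through PBS (mean 0.212 FPKM, against 0.0366 FPKM with fluoxetine). Its place among the 9 tested therefore depends on the contrast itself. CRIP1 lost its call when any 1 of the 4 libraries was left out and in 4 of 11 other alternatives, with a log2 difference between -1.39 and -0.81 throughout.

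Fluoxetine replicate 2 was the lowest of the 4 libraries for 7 of the 9 members, as for 22.9% of all genes tested, and PBS replicate 2 was the highest for 6, as for 33.8%. The genes outside the list with the most similar course over the 4 libraries, by Euclidean distance from the median centred pattern of the members, were CABYR (0.118 on the log2 scale), PALMD (0.188), FUT3 (0.189), GPR89A (0.212) and HID1 (0.214), among 10575 genes with a mean of at least 1 FPKM. CABYR, for example, had 2.45 and 2.85 FPKM with PBS and 2.08 and 1.41 FPKM with fluoxetine. With 4 libraries such likeness is weak, and fluoxetine replicate 2 is the lowest library in this pattern.

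Relatives and partners of the members were listed by family or known binding and not by how they moved. The lists were made with earlier results of these data known, so their counts are not independent evidence of a direction. Of 84 relatives and partners, 51 were tested, and none had an adjusted p under 0.05 from limma. At an unadjusted p under 0.05 from limma there were 10 of the 51, all lower in fluoxetine. Among all genes tested, 8.51% had such a p in either direction, and the share that was lower is not given here. The median log2 difference of the 51 was -0.08, beside -0.021 over all genes tested. The fluoxetine libraries lay below both PBS libraries in 24 of the 51 and above them in 5, where 24.8% and 16.7% of all genes tested did. With voom on the recovered reads, 1 of 54 passed and 7 had an unadjusted p under 0.05, where 0.361% and 10.5% of all 14117 genes fitted did. The gene that passed was AHNAK, a giant scaffold protein bound by the complex of S100A10 and ANXA2, with 0.843 and 0.836 FPKM under PBS and 0.413 and 0.570 FPKM under fluoxetine. Its log2 difference was -0.79 with voom (adjusted p = 0.00438) and -0.68 with limma on FPKM (standard error 0.24, adjusted p = 0.508).

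Within families the values again separated by gene. Of 8 other annexins tested, ANXA6 had the widest gap, with 0.290 and 0.426 FPKM under PBS and 0.151 and 0.170 FPKM under fluoxetine (log2 difference -0.80, standard error 0.34, adjusted p = 0.552 from limma). ANXA4, ANXA5 and ANXA7 differed by 0.02 to 0.11 on the log2 scale. Of the 3 other S100 genes tested, S100A16, which lies in the same stretch of chromosome 1, had 25 and 19 reads with PBS and 4 in each fluoxetine library (log2 difference -1.54, standard error 0.36, adjusted p = 0.199). S100A2 had 14, 11, 9 and 2 reads in the same order of libraries, and S100A13 differed by 0.11 (standard error 0.11). S100A16, like CD44, reached the minimum mean of 0.1 FPKM only through PBS (mean 0.4 FPKM, against 0.0704 FPKM with fluoxetine). Among CD44 partners, MMP14, a membrane metalloprotease that cleaves CD44, had 0.403 and 0.614 FPKM with PBS and 0.147 and 0.178 FPKM with fluoxetine (log2 difference -1.19, standard error 0.32, adjusted p = 0.325), while EZR differed by -0.04 (standard error 0.07). Of 13 other LIM domain genes tested, none had an adjusted p under 0.05 from limma. Their median log2 difference was -0.07, beside -0.021 over all genes tested. CRIP2 had 7.12 and 6.96 FPKM with PBS and 6.13 and 5.77 FPKM with fluoxetine (log2 difference -0.24, standard error 0.10, adjusted p = 0.541). The lowest log2 differences of these LIM domain genes were those of FHL3 (-0.55), FHL1 (-0.47) and LPP (-0.35), and the highest were those of CSRP1 (0.11) and CSRP2 (0.15). EMP2 differed by 0.09 (standard error 0.07). ANXA6, MMP14, AHNAK, FHL1, FHL3 and LPP were singled out after their values were seen.

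Of 20 markers of fibroblasts and other mesenchymal cells, 10 were tested and 2 (VIM and FN1) fell with an adjusted p under 0.05 from limma, where 0.213% of all genes tested fell. This list too was made with earlier results of these data known, so its counts are not independent evidence of a direction. VIM (vimentin), the intermediate filament of mesenchymal cells, had 5.36 and 5.52 FPKM with PBS and 3.32 and 2.86 FPKM with fluoxetine (log2 difference -0.80, standard error 0.12, adjusted p = 0.0173). FN1 (fibronectin) had 2.46 and 3.30 FPKM with PBS and 1.33 and 1.19 FPKM with fluoxetine (log2 difference -1.12, standard error 0.17, adjusted p = 0.0181). FN1 was called in 0 of the 4 fits that left out a library (adjusted p from limma 0.0915 to 0.458) and VIM in 1 of 4 (0.0426 to 0.356), and each was called in 8 of 11 other alternatives, lower in fluoxetine throughout. The summed level of all 20 was 17.9 and 18.7 FPKM with PBS and 12.4 and 14.4 FPKM with fluoxetine, but that of the 18 without VIM and FN1 was 10 and 9.87 FPKM with PBS and 7.77 and 10.4 FPKM with fluoxetine, so the groups then overlapped. Among the 8 others tested, 5 had a lower and 3 a higher or level value. DCN, among the lower, reached the minimum mean of 0.1 FPKM only through PBS (mean 0.169 FPKM, against 0.096 FPKM with fluoxetine). Its place in that count therefore depends on the contrast itself. COL1A1, a collagen gene that defines fibroblasts, had 2.53 and 2.75 FPKM with PBS and 1.83 and 2.66 FPKM with fluoxetine, and ACTA2 had 4.39 to 5.86 FPKM, both with overlapping groups. SPARC had both fluoxetine libraries below both PBS libraries (log2 difference -0.85, standard error 0.33, adjusted p = 0.536), and TAGLN had both above (0.49, standard error 0.25, adjusted p = 0.604). THY1, PDGFRB, FAP and POSTN had 3 reads or fewer in every library. The part of these markers in the values of the members was not tested.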

How the data were processed

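RNA of 2 PBS-treated and 2 fluoxetine-treated LASCPC-01 samples was sequenced as paired-end reads, with a stranded TruSeq kit per the labels and a VAHTS kit in the study's methods. The authors deposited FPKM, 1 value per gene and library. The submitters' processing notes name fastp, HISAT2, HTSeq and GRCh38, without versions, and the gene annotation is not given in the sources used here.

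Each FPKM is a whole number of reads divided by gene length and library depth. The depths (32873603 to 34831389 reads) were found from the commonest ratios among low values and the GENCODE 29 exon lengths of 123 genes, then set to whole reads. The smallest whole gene length giving whole reads in every library was taken for each gene, which solved all 16080 genes above 0. True reads can be multiples of these. The recovery and the fits were tested on simulated data.

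Differences were fitted with limma 3.58.1 in R 4.3.3, with the variance trend in eBayes, on log2(FPKM + 0.1), for 12663 genes with a mean of at least 0.1 FPKM, with Benjamini-Hochberg adjustment. Two-sided exact permutation of 2 against 2 libraries cannot go below p = 0.333. The count model named in the study's methods was not run. The deposited values are FPKM, and the reads recovered from them were fitted only with voom, as an alternative. Intervals are Clopper-Pearson at 95% and cover counting error only. Replicates differed by more than sampling noise (chi-square of their reads over genes, 9.64 per degree of freedom in PBS, 11.6 in fluoxetine).

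The members and lists were chosen with earlier results of these data known. Every member was named. Of the family, partner and marker lists, genes with an adjusted p under 0.05 and up to 5 a list with the highest FPKM could be named, and the 5 genes nearest the members' pattern. Genes named outside that rule were chosen after their values were seen. Alternatives were pseudocounts of 1 and 0.01, a minimum of 1 FPKM or none, rescaling to TPM, median centring, quantile normalization, eBayes that was robust or had no trend, a replicate block, voom on recovered reads of genes with at least 10, and leaving out each library. Tables and figures were made in Python 3.11.15 with scipy 1.17.1.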

Additional observations from a re-analysis of the deposited data

How the results depend on the processing

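Of 27 genes lower and 3 higher in fluoxetine with an adjusted p under 0.05, limma called 0 and 0 without the variance trend and 0 and 0 without the filter on low values, 48 lower with voom, 14 lower with quantile normalization, 6 higher at a mean of at least 1 FPKM and 5 higher with median centring. With 1 library left out the counts were 2 to 14 lower and 1 to 3 higher, with the lone library assumed to vary like the others. The count of members called, 1, was 0 without the trend, with voom, without the filter, with quantile normalization and in all 4 fits that left out a library. The adjusted p of CRIP1 ranged from 0.00125 to 0.559 over the alternatives other than leaving out a library and from 0.0919 to 0.266 with 1 library left out. The count of relatives and partners called was 0 with limma on FPKM and 1 with voom. The median log2 difference of the members, -0.50, was -0.05 at a mean of at least 1 FPKM and -1.15 to -0.10 with 1 library left out. Members past a log2 difference of 0.5 between the PBS libraries, 1 in the report, were 0 with a pseudocount of 1, 3 with a pseudocount of 0.01 and 3 after rescaling to TPM. Quantile normalization turned the sign of ANXA1 (-0.04) and LGALS1 (0.01), and with 1 library left out the log2 difference ranged from -0.30 to 0.21 for LGALS1, from -1.15 to 0.15 for S100A6 and from -0.10 to 0.00 for S100A10. The log2 difference of CD44, -1.17, was -2.47 with voom and -0.22 with a pseudocount of 1. The cause of these shifts was not tested.

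With the replicate block, 47 genes were lower and 17 higher and 1 member, CRIP1, was called. Samples with the same number correlated at 0.0351 across genes in their deviations from the group means. Whether they shared a culture or batch was not tested. CD44 was under the minimum of 0.1 FPKM without PBS replicate 2 and has no value there. Depth limits S100A4, S100A11, S100A6 and CD44 most, which had 1 to 65 reads in a library. Reads were also few in the fluoxetine libraries for CRIP1 (33 and 29) and EMP1 (31 and 29).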

Other observations

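Other cell types were looked for with short marker lists. The 6 endothelial markers summed to 0.324 and 0.370 FPKM with PBS and 0.197 and 0.252 FPKM with fluoxetine. Of the immune markers, CD68, which many cell types use in lysosomes, had 2.74 to 3.97 FPKM, and PTPRC (CD45) had at most 7 reads in any library. Of the fibrillar collagen genes listed, COL3A1 and COL1A2 had no read in PBS replicate 1 but 34 and 11 in replicate 2, while COL1A1 (493 and 565 reads) and COL5A1 (57 and 43 reads) were present in both. Fluoxetine replicates held 9 and 5 reads of COL3A1 and 1 each of COL1A2.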
